A study of Homo sapiens with 12 samples.

Results

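Transcript levels of 10 human genes of polyamine synthesis and breakdown were examined on 12 one-colour arrays. The genes were SAT1, SAT2, SMOX, ODC1, OAZ1, OAZ2, AZIN1, AMD1, SRM and SMS, and every probe set that the platform annotation gives to one of these symbols alone was taken. That made 19 probe sets of the 54613 that were tested, or 10 of 19775 genes. A further set, annotated to SAT1 together with another gene, was left out. The family was chosen by the measured SAT1 values, which were among the strongest increases with mithramycin in each line, so the mithramycin response of SAT1 is given as a description without a test.

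Both lines used, TC32 and TC71, were grown from Ewing sarcomas, tumours driven by a fusion of EWSR1 with an ETS factor gene, and are established. The groups were TC32 with 100 nM mithramycin for 6 h, TC32 with the solvent for 6 h, TC71 with 100 nM mithramycin for 6 h and TC71 with the solvent for 6 h. All cells had recovered overnight after plating, and each group had 3 biological replicates on 1 array each, which limits the precision of every value. Mithramycin is an antibiotic that binds GC-rich DNA and lowers transcription from many GC-rich promoters. Values are log2 levels of a probe set as the authors deposited them, and a difference of 1 is a factor of 2. Each line is a single line and not a panel of tumours, and the levels are averages over all cells of a dish, so a change in few cells and a smaller change in all cells cannot be told apart.

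Polyamines (putrescine, spermidine and spermine) are small cations that bind nucleic acids and are needed for growth. ODC1, ornithine decarboxylase, makes putrescine. AMD1 supplies decarboxylated S-adenosylmethionine, from which SRM, spermidine synthase, and SMS, spermine synthase, take the aminopropyl groups for the next steps. SAT1 acetylates spermidine and spermine for export or oxidation, and SMOX oxidises spermine directly. The antizymes OAZ1 and OAZ2 bind ODC1, deliver it to the proteasome and restrain polyamine uptake, while AZIN1, an inactive relative of ODC1, draws the antizymes away. Much of this control runs through translation and protein turnover, which arrays of RNA do not measure.

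All 9 Ewing sarcoma markers analysed, among them CD99, NKX2-2 and STEAP1, lay above the array median on 12 of 12 arrays. Of 5 blood markers, 4 lay below it on every array, among them the leukocyte gene PTPRC, and HBB lay above it. Of 5 epithelial markers, EPCAM, CDH1 and KRT5 lay below it on every array, and KRT8 and KRT18 lay above it, KRT18 at 9.10 to 10.1. Of 5 endothelial markers, 4 lay below it on every array. The array medians ranged from 4.38 to 4.47.

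Summed marker levels moved with mithramycin as well. The Ewing sum was 81.7 to 82.1 in treated TC32 cells and 82.9 to 83.4 in TC32 controls, and 78.9 to 79.7 in treated TC71 cells and 80.8 to 81.6 in TC71 controls. The blood sum was 17.5 to 18.4 in treated TC32 cells and 16.7 to 17.4 in TC32 controls, and 16.7 to 17.0 in treated TC71 cells and 16.2 to 16.7 in TC71 controls. Neither sum overlapped between treated and control arrays. In TC71 the fibroblast sum was 33.4 to 34.4 with mithramycin and 31.8 to 32.2 in controls, and the epithelial and endothelial sums were also higher without overlap, at 24.1 to 24.2 against 23.9 to 24.1 and at 16.6 to 17.0 against 15.5 to 16.5. In TC32 these 3 sums overlapped. The part of these shifts in the changes with mithramycin was not tested. The difference between the 3' and 5' control sets of beta-actin, a sign of RNA integrity that was also tried as a covariate, was 0.51 to 0.67 in TC32 with mithramycin and 0.67 to 0.74 in TC32 controls. It was 0.79 to 0.99 in TC71 with mithramycin and 1.08 to 2.0 in TC71 controls, where replicate 1 had the highest value. The same difference for GAPDH was 0.066 to 0.067 in treated TC32 cells and 0.048 to 0.10 in TC32 controls. In TC71 the GAPDH difference was 0.098 to 0.14 with mithramycin and 0.080 to 0.12 in controls. Treated and control arrays overlapped for GAPDH in each line.

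Because mithramycin binds GC-rich DNA, the 250 bases before the start of each gene were read from RefSeq's promoter table for GRCh38.p14, which matched 8 of the 10 genes with 12 windows. AZIN1 and SMOX were not analysed in this respect. The windows below are those of SAT1 (chrX:23782923-23783172, strand +), which was far higher with mithramycin, of OAZ2 (chr15:64703282-64703531, strand -), which rose, of AMD1 (chr6:110874535-110874784, strand +), which fell, and of ODC1 (chr2:10448328-10448577, strand -), which moved little. Capitals mark GGGCGG on either strand, the GC box to which Sp factors bind, and CACGTG and TATAAA were also searched on both strands.
SAT1: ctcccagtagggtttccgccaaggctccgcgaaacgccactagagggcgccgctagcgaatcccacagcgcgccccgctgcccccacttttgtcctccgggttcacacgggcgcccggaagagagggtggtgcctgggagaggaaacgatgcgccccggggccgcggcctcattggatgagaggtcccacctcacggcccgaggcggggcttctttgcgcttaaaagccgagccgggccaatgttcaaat
OAZ2: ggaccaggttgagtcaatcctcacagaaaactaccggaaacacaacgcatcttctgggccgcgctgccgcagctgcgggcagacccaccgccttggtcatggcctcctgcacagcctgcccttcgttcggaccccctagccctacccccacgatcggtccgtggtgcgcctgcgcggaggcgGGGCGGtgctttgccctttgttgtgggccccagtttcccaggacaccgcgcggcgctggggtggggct
AMD1: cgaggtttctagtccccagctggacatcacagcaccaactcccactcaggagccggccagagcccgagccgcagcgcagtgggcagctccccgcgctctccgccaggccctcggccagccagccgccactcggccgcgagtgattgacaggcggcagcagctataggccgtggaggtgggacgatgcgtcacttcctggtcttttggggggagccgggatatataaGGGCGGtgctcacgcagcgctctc
ODC1: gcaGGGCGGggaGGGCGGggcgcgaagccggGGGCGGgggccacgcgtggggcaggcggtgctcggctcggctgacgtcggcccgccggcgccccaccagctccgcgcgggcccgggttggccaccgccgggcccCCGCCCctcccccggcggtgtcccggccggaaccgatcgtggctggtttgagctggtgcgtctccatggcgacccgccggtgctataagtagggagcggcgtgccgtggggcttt
The SAT1 window held none of the 3 motifs at 66.4% G+C. Both windows of SAT2, which did not share the rise of SAT1, also held none, at 58.8% and 62.8% G+C. The printed windows of OAZ2 and AMD1 each held 1 GC box at 67.2% G+C, while another of the 3 AMD1 windows held 3. The OAZ1 window held 2 GC boxes at 75.2% G+C and the SMS window 1 at 72.8% G+C. The printed ODC1 window held 4 GC boxes at 78.8% G+C, and the single window of SRM, whose product follows ODC1 in the pathway, held 6 at 82.0% G+C. A GC box occurred in 42.6% of the 35116 windows of all genes, CACGTG in 6.34% and TATAAA in 10.7%, and the median G+C content of all windows was 58.0%. CACGTG was found in 1 of 2 ODC1 windows and in the SRM window, and no base was shared between matches of different motifs. These matches describe letters and not bound sites.

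SAT1 was about 4-fold higher with mithramycin in each line. At its brightest probe set it stood at 8.19, 8.34 and 8.21 in TC32 cells with mithramycin, against 6.43, 6.19 and 6.39 in TC32 controls. In TC71 it stood at 8.86, 8.84 and 8.88 with mithramycin, against 6.82, 6.73 and 6.65 in controls. The lowest treated array lay well above the highest control array in each line. The log2 difference was 1.91 ± 0.08 in TC32 (SE of the model, n = 3 per group), or 3.76-fold, and 2.13 ± 0.08 in TC71, or 4.37-fold. This placed SAT1 at rank 19 from the top in TC32 and rank 2 in TC71 among 19775 genes, and at ranks 5 and 1 among the 8386 genes whose mean level reached 6.

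The other SAT1 sets gave the same picture. The second stood at 7.74, 7.97 and 7.77 in treated TC32 cells, against 5.70, 5.78 and 5.72 in TC32 controls. In TC71 it stood at 8.37, 8.53 and 8.47 with mithramycin, against 6.45, 6.45 and 6.21 in controls. It differed by 2.09 in TC32 and by 2.08 in TC71. The dimmest of the 3 stood at 6.75, 6.90 and 6.73 in treated TC32 cells, against 5.36, 5.32 and 5.63 in TC32 controls. Its TC71 values were 7.28, 7.27 and 7.01 with mithramycin, against 5.56, 5.66 and 5.65 in controls. Its differences of 1.36 and 1.56 were the smallest, and no set overlapped between treated and control arrays. The TC71 effect minus the TC32 effect was 0.22 at the brightest set (95% interval -0.02 to 0.46), given without a test since the same values chose SAT1.

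**Figure D1:**
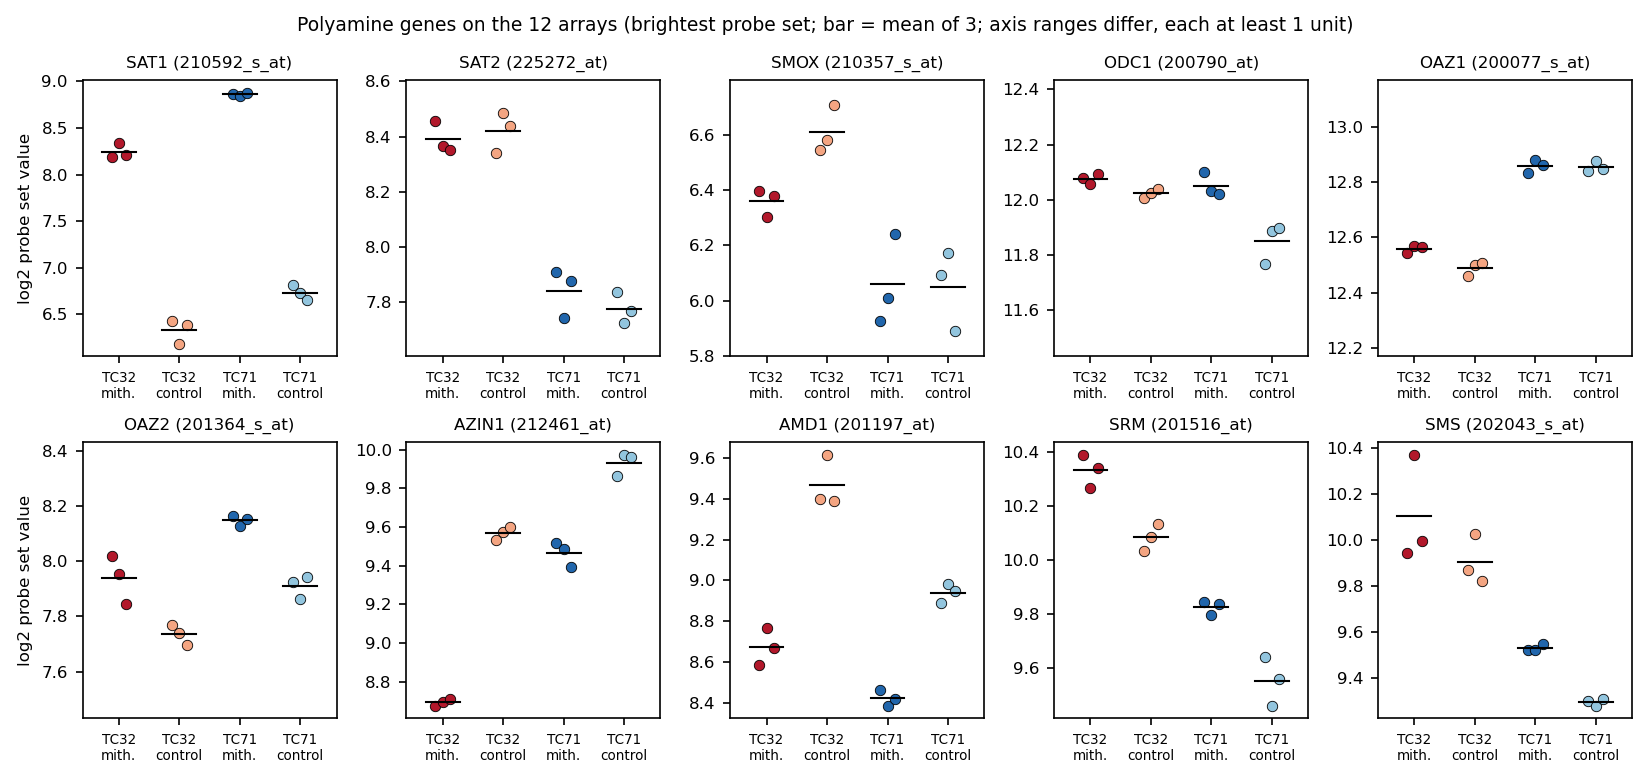
Log2 value of the brightest probe set of each of the 10 genes on every array (points) with the mean of 3 arrays (bar), by line and treatment; the vertical ranges differ between panels. SAT1 stands between 8.19 and 8.88 on treated arrays and between 6.19 and 6.82 on control arrays, and AZIN1 and AMD1 are lower with mithramycin in each line.

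SAT2, a relative of SAT1 whose best known substrate is thialysine rather than spermidine, did not share this difference. It lay between 8.35 and 8.46 in treated TC32 cells and between 8.34 and 8.48 in TC32 controls. The TC71 ranges were 7.74 to 7.91 with mithramycin and 7.72 to 7.84 in controls, and the groups overlapped in each line. Its change was -0.03 in TC32 (95% interval -0.18 to 0.12; adjusted p = 0.764) and 0.07 in TC71 (-0.09 to 0.22; adjusted p = 0.544). The direction of these small values turned in TC32 with quantile normalization run again or without TC32 control replicate 2, and in TC71 with centring on housekeeping genes.

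SMOX, the spermine oxidase, gave no uniform picture. The brightest set lay between 6.30 and 6.40 in treated TC32 cells and between 6.55 and 6.71 in TC32 controls, without overlap, and its change of -0.25 ± 0.09 missed the threshold (adjusted p = 0.051). This value passed in 9 of 24 alternatives, with adjusted p from 0.00799 to 0.597 over all of them. In TC71 the change was 0.01 ± 0.09 (adjusted p = 0.962). Of the 2 dimmer sets, the one with a mean of 4.31 was not called in either line, and the dimmest rose by 0.37 in TC32 (adjusted p = 0.0189) and by 0.34 in TC71 (adjusted p = 0.033). These levels are close to the array medians, so their sizes are rough.

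Of the 9 members other than SAT1, 2 rose and 2 fell in TC32 at their brightest sets, and 3 rose and 2 fell in TC71. Of all 19775 genes, 41.6% were called in TC32 (23.1% higher and 18.5% lower) and 32.3% in TC71 (17% higher and 15.3% lower). Among the genes whose mean reached 6, 60% were called in TC32 and 50.2% in TC71. The median change of the 9 genes was 0.05 in TC32 and 0.07 in TC71, beside 0.08 and 0.07 for all genes. Nothing is read from these counts, since the genes were grouped with this contrast in view. Calls are those of limma across all probe sets at a Benjamini-Hochberg adjusted p under 0.05.

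Small changes depend on the scale, for which 2 alternatives were tried. The median of 8 housekeeping genes was 0.10 higher with mithramycin in TC32 and 0.20 higher in TC71, and that of the hybridization control sets was 0.22 higher in TC32 and 0.01 lower in TC71. Centring on either moves every gene by that amount. All changes are relative to the rest of each array, and the direction or call of those under about 0.3 can depend on the scale. The changes of SAT1 and AMD1 and of the brightest AZIN1 set were larger than these shifts and kept their direction under both.

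**Figure D2:**
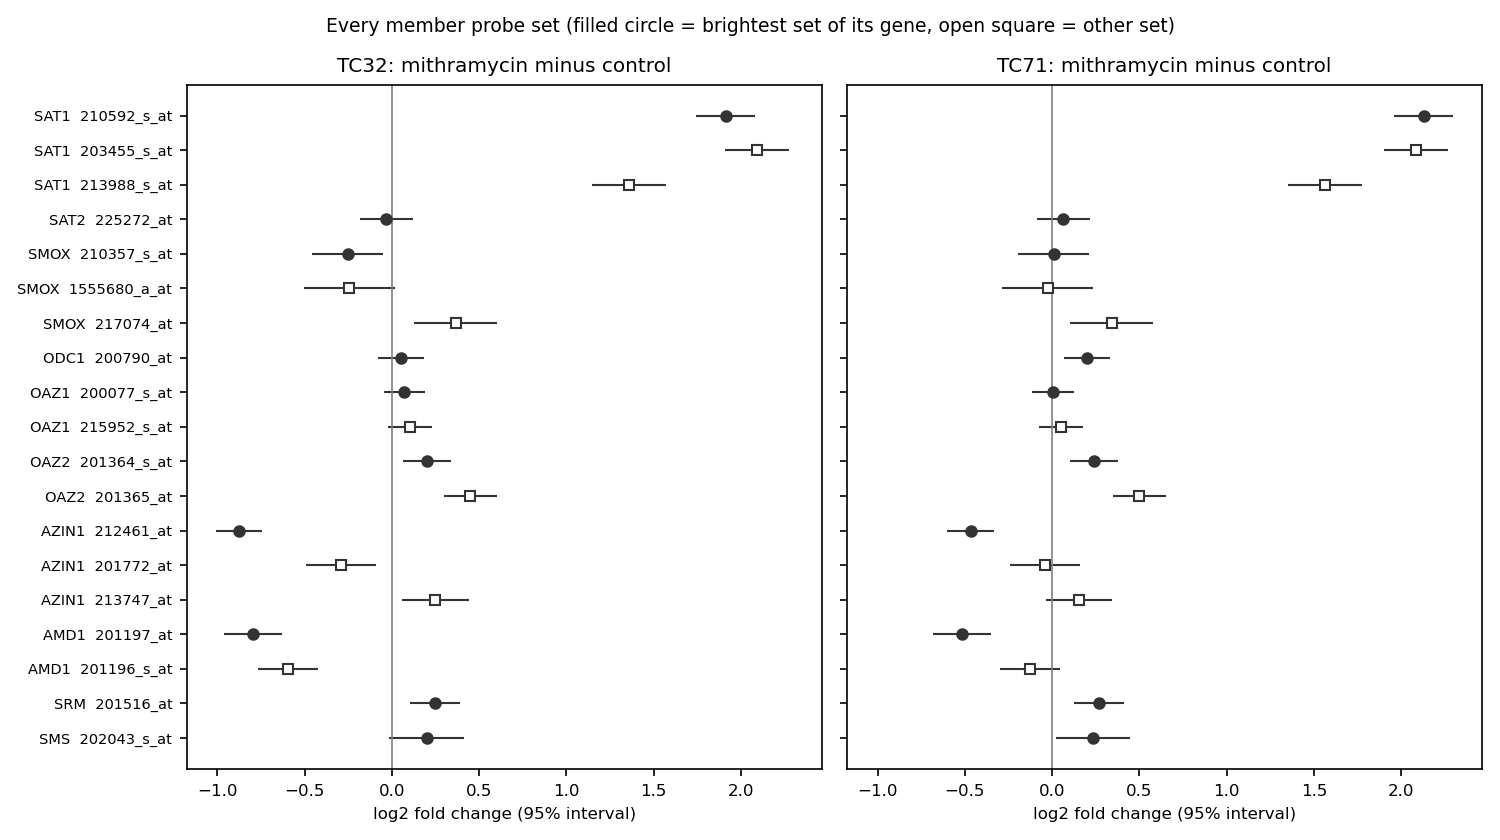
Log2 fold change, mithramycin minus control, of all 19 probe sets in TC32 (left) and TC71 (right), with the 95% interval of the model; filled circles are the brightest set of a gene and open squares its other sets. The SAT1 sets lie between 1.36 and 2.13, and the AZIN1 sets lie on both sides of 0.

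ODC1, the first enzyme of synthesis, moved little. In TC32 it stood at 12.08, 12.06 and 12.09 with mithramycin, against 12.01, 12.02 and 12.04 in controls. The groups did not overlap, but the change was 0.05 ± 0.06 (95% interval -0.08 to 0.18; adjusted p = 0.526), and it turned to -0.043 with centring on housekeeping genes and to -0.16 with centring on hybridization controls. In TC71 it stood at 12.10, 12.03 and 12.02 with mithramycin, against 11.77, 11.89 and 11.90 in controls, also without overlap. It rose there by 0.20 ± 0.06 (adjusted p = 0.025) on the deposited scale, but stood at -0.0022 with centring on housekeeping genes. The call also ended with the beta-actin covariate (0.11; adjusted p = 0.392), without TC71 mithramycin replicate 1 (0.17) or 2 (0.21) and without TC71 control replicate 1 (0.16). With centring on hybridization controls the adjusted p was 0.323, and with quantile normalization run again it was 0.0584.

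OAZ1, the abundant and widespread antizyme, lay between 12.54 and 12.57 in treated TC32 cells and between 12.46 and 12.51 in TC32 controls. In TC71 it lay between 12.83 and 12.88 with mithramycin and between 12.84 and 12.88 in controls. Its change was 0.07 in TC32 (95% interval -0.05 to 0.19; adjusted p = 0.342) and 0.005 in TC71 (-0.11 to 0.12; adjusted p = 0.962), and the second set was not called in either line. With an intensity trend in the fit the TC32 change was called (adjusted p = 0.0195). The direction of the brightest set turned in each line with centring on housekeeping genes and in TC32 with centring on hybridization controls.

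OAZ2, an antizyme of lower abundance, was higher at both of its probe sets. At the brightest set it stood at 8.02, 7.95 and 7.84 in TC32 with mithramycin, against 7.77, 7.74 and 7.70 in controls. The TC71 values were 8.17, 8.13 and 8.15 with mithramycin, against 7.92, 7.86 and 7.94 in controls. Treated and control arrays did not overlap in either line. It rose by 0.20 ± 0.06 in TC32 (adjusted p = 0.024) and by 0.24 ± 0.06 in TC71 (adjusted p = 0.0123). The second set stood at 7.73, 7.76 and 7.58 in treated TC32 cells, against 7.25, 7.30 and 7.19 in controls, and at 8.03, 7.95 and 8.10 in treated TC71 cells, against 7.53, 7.48 and 7.58 in controls. It rose by more, 0.45 ± 0.07 in TC32 (adjusted p = 0.00024) and 0.50 ± 0.07 in TC71 (adjusted p = 0.000132). At the brightest set the calls ended with centring on housekeeping genes (0.11 and 0.04) and on hybridization controls (-0.013 and 0.25). The TC32 call also ended without TC32 mithramycin replicate 1 (0.16), without TC32 control replicate 2 (0.21) or 3 (0.18), with array weights (0.17) and in a fit of the TC32 arrays alone (adjusted p = 0.0852). The TC71 call ended without TC71 control replicate 2 (0.22) and with the beta-actin covariate (adjusted p = 0.0862).

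AZIN1, the antizyme inhibitor, fell at its brightest probe set in each line. It stood at 8.67, 8.69 and 8.71 in treated TC32 cells, against 9.53, 9.57 and 9.60 in TC32 controls. In TC71 it stood at 9.52, 9.49 and 9.39 with mithramycin, against 9.86, 9.97 and 9.96 in controls. The treated arrays were lowest in each line, with no overlap. AZIN1 fell by 0.88 ± 0.06 in TC32 (adjusted p = 1.9e-07) and by 0.47 ± 0.06 in TC71 (adjusted p = 7.46e-05). The TC71 effect minus the TC32 effect was 0.41 ± 0.09 (adjusted p = 0.0126), a smaller fall in TC71. That difference between the lines was no longer called with centring on housekeeping genes (0.30; adjusted p = 0.105), with the beta-actin covariate (0.34; adjusted p = 0.0759) or with the mean of the gene's sets (0.19; adjusted p = 0.186).

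The other AZIN1 sets did not follow the brightest one. The second stood at 8.07, 8.44 and 8.23 in TC32 with mithramycin, against 8.47, 8.63 and 8.52 in controls. It fell there by 0.29 ± 0.09 (adjusted p = 0.0264) and changed by -0.04 ± 0.09 in TC71 (adjusted p = 0.786). The dimmest set, with a mean of 4.56, rose by 0.25 ± 0.09 in TC32 (adjusted p = 0.0417) and was not called in TC71. With the mean of the 3 sets the change of AZIN1 was -0.31 in TC32 and -0.12 in TC71 (adjusted p = 0.121), so the size in each line and the call in TC71 rest on the brightest set.

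AMD1, S-adenosylmethionine decarboxylase, fell in each line. At its brightest set it stood at 8.58, 8.77 and 8.67 in treated TC32 cells, against 9.40, 9.62 and 9.39 in TC32 controls. In TC71 it stood at 8.46, 8.38 and 8.42 with mithramycin, against 8.89, 8.98 and 8.95 in controls. The groups did not overlap in either line. AMD1 fell by 0.80 ± 0.08 in TC32 (adjusted p = 3.2e-06) and by 0.52 ± 0.08 in TC71 (adjusted p = 0.00019), calls that held in each of the 24 alternatives. The second set stood at 8.21, 8.42 and 8.30 in treated TC32 cells, against 8.79, 9.01 and 8.91 in controls, and fell by 0.59 ± 0.08 (adjusted p = 5.88e-05). In TC71 the second set stood at 8.31, 8.23 and 8.25 with mithramycin, against 8.30, 8.47 and 8.41 in controls, overlapping, and its change of -0.13 ± 0.08 was not called (adjusted p = 0.271). The difference of the line effects was called at the second set (0.47 ± 0.11; adjusted p = 0.0234) and not at the brightest (0.28 ± 0.11; adjusted p = 0.176). For AMD1 as a gene it was called with the mean of its sets (0.37; adjusted p = 0.032) and with an intensity trend (0.28; adjusted p = 0.0424).

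SRM, one of the aminopropyltransferases that use AMD1's product, rose by a small amount in each line. SRM stood at 10.39, 10.27 and 10.34 in treated TC32 cells, against 10.03, 10.09 and 10.13 in TC32 controls. In TC71 it stood at 9.84, 9.80 and 9.84 with mithramycin, against 9.64, 9.46 and 9.56 in controls. Treated arrays were above control arrays in each line. SRM rose by 0.25 ± 0.07 in TC32 (adjusted p = 0.0107) and by 0.27 ± 0.07 in TC71 (adjusted p = 0.0077), and the calls ended with centring on housekeeping genes (0.15 and 0.07) and on hybridization controls (0.03 and 0.28).

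SMS, the other aminopropyltransferase, stood at 9.94, 10.37 and 10.00 in treated TC32 cells, against 9.87, 10.02 and 9.82 in controls, with replicate 2 highest in each group. In TC71 it lay between 9.52 and 9.55 with mithramycin and between 9.28 and 9.31 in controls, without overlap. Its change was 0.20 ± 0.10 in TC32 (adjusted p = 0.136) and 0.23 ± 0.10 in TC71 (adjusted p = 0.0982), and neither was called. The fit shares 1 spread over all groups, and the TC71 change passed in 5 of 23 alternatives, among them a fit of the TC71 arrays alone (adjusted p = 0.0134) and the fit without TC32 mithramycin replicate 2 (adjusted p = 0.0157). Without TC32 mithramycin replicate 2 the TC32 change was 0.066. The TC32 value turned to -0.017 with centring on hybridization controls.

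**Figure D3:**
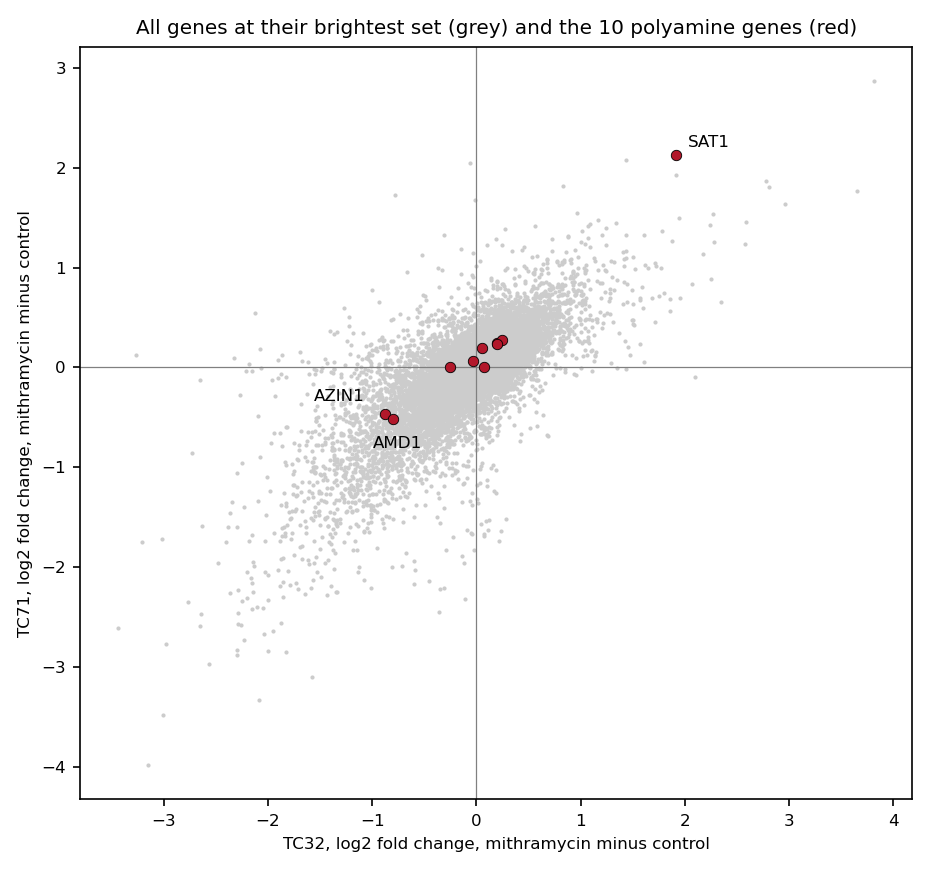
Log2 fold change with mithramycin in TC32 (horizontal axis) and TC71 (vertical axis) for 19775 genes at their brightest probe set (grey points) and the 10 polyamine genes (red points). SAT1 lies at 1.91 and 2.13 in the upper right part. AZIN1 at -0.88 and -0.47 and AMD1 at -0.80 and -0.52 lie at the lower left. The other 7 lie between -0.25 and 0.27 on each axis.

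Without mithramycin, a difference between the lines was called at the brightest set of each of the 10 genes. The ODC1 call ended in 10 of 24 alternatives and the OAZ2 call in 14. In TC71 controls relative to TC32 controls, 4 genes were higher and 6 lower at their brightest sets, where 49.4% of all genes were called (25.8% higher and 23.5% lower), and 74.4% of those whose mean reached 6. These counts are not read as a result about the 10 genes. The median difference of the 10 genes at their brightest sets was -0.35, beside -0.03 for all genes. Over the 19 probe sets of these genes the median was 0.11, beside -0.04 for all probe sets. The sign thus depends on the unit, and nothing is read from these medians. SAT1 was not chosen for this contrast, although it shares control arrays with those that chose it. The 4 enzymes of synthesis, ODC1, AMD1, SRM and SMS, were all lower in TC71, and so were SAT2 and SMOX. OAZ1, OAZ2, AZIN1 and SAT1 were higher.

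SAT1 was 0.40 ± 0.08 higher in TC71 controls than in TC32 controls (adjusted p = 0.000843), and its other sets were 0.63 (adjusted p = 3.34e-05) and 0.19 (adjusted p = 0.149) higher. With the beta-actin covariate the value at the brightest set was 0.27 (adjusted p = 0.128). OAZ1 was 0.37 ± 0.05 higher (adjusted p = 8.75e-05), and its 3 TC71 controls at 12.84 to 12.88 lay above all TC32 arrays of either treatment. AZIN1 was 0.36 ± 0.06 higher at its brightest set (adjusted p = 0.000253), 0.66 ± 0.09 higher at the second (adjusted p = 5.32e-05) and 0.11 higher at the dimmest, which was not called (adjusted p = 0.368). At the brightest AZIN1 set the mean was 9.46 ± 0.06 in treated TC71 cells (SD, n = 3) and 9.57 ± 0.03 in TC32 controls, close together without overlap. The second AZIN1 set stood further apart and in the opposite order, at 9.15 in treated TC71 cells and 8.54 in TC32 controls.

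At the brightest sets SAT2 had the widest gap among the 10 genes, 0.64 ± 0.07 lower in TC71 controls (adjusted p = 4.26e-06), followed by SMS at -0.61 ± 0.10 (adjusted p = 0.000181). SMOX was at -0.56 ± 0.09 (adjusted p = 0.000227), with its other sets also lower. AMD1 and SRM were each at -0.53 (adjusted p = 6.29e-05 and 1.69e-05), and every SRM array of TC71, treated or not, lay below every SRM array of TC32. The gaps at ODC1 and OAZ2 were small. ODC1 was at -0.17 ± 0.06 (adjusted p = 0.0341), a call that ended without any 1 of the 3 TC32 controls or without TC71 control replicate 1 (-0.18 to -0.13). OAZ2 was at 0.17 ± 0.06 (adjusted p = 0.0421), a call that ended in 8 of 12 fits without 1 array (0.15 to 0.19), namely without each TC32 control, each treated TC71 array and TC71 control replicates 1 and 3. Both calls also ended with the replicate block (adjusted p = 0.0521 and 0.0512), with either centring, in a fit of the control arrays alone and with the beta-actin covariate, where ODC1 was at -0.061 (adjusted p = 0.694) and OAZ2 at 0.16 (adjusted p = 0.326). The second OAZ2 set was higher by 0.29 ± 0.07 (adjusted p = 0.00464).

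The sum of 5 fibroblast markers also differed between the lines, at 31.8 to 32.2 in TC71 controls and 26.8 to 27.2 in TC32 controls, and its part in these differences was not tested. Of these markers, COL1A1 and COL3A1 lay above the array median on all 12 arrays and PDGFRA below it on all 12, while DCN, LUM and COL1A1 had higher means in TC71 controls (8.15, 4.23 and 7.26) than in TC32 controls (4.14, 2.40 and 6.07). The mean of COL3A1 was lower, at 9.42 in TC71 controls and 11.5 in TC32 controls.

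**Figure D4:**
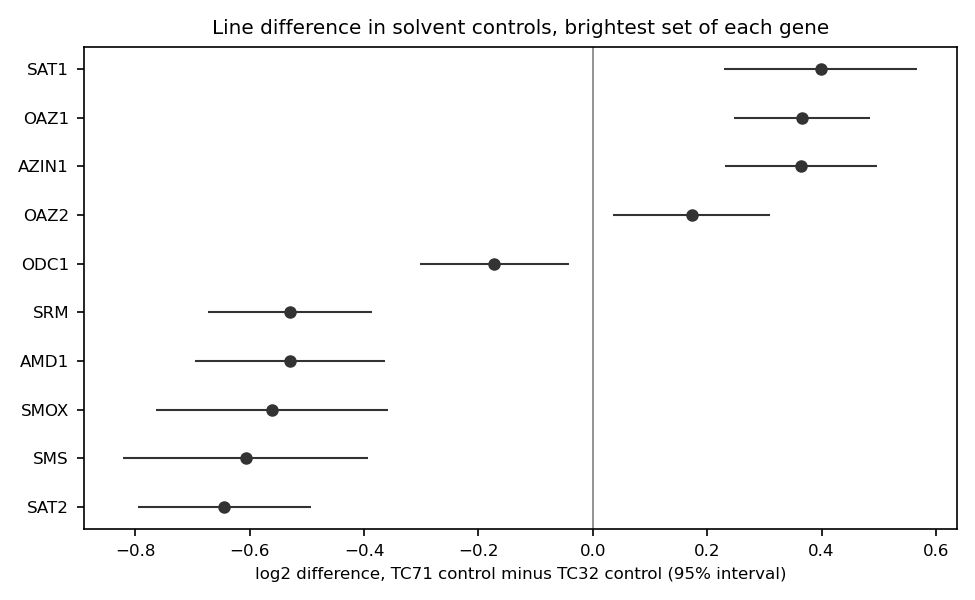
Log2 difference of each gene's brightest probe set, TC71 control minus TC32 control, with the 95% interval of the model (horizontal axis), genes sorted by size. SAT1, OAZ1, AZIN1 and OAZ2 lie between 0.17 and 0.40, and ODC1, AMD1, SRM, SMOX, SMS and SAT2 between -0.64 and -0.17.

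With both factors together, SAT1 levels at the brightest set ran downward from treated TC71 cells (8.86 ± 0.02) over treated TC32 cells (8.25 ± 0.08) and TC71 controls (6.73 ± 0.09) to TC32 controls (6.33 ± 0.13; SD, n = 3 each). No neighbouring groups overlapped there, but at the dimmest SAT1 set TC71 controls (5.56 to 5.66) overlapped TC32 controls (5.32 to 5.63). For AMD1 the order at the brightest set ran upward over treated TC71 cells (8.42 ± 0.04), treated TC32 cells (8.67 ± 0.09), TC71 controls (8.94 ± 0.05) and TC32 controls (9.47 ± 0.13), again without overlap. At the second AMD1 set, treated TC71 cells (8.23 to 8.31), treated TC32 cells (8.21 to 8.42) and TC71 controls (8.30 to 8.47) overlapped. For SRM the order ran downward over treated TC32 cells (10.33 ± 0.06), TC32 controls (10.08 ± 0.05), treated TC71 cells (9.83 ± 0.03) and TC71 controls (9.56 ± 0.09), without overlap. Of the 9 genes other than SAT1, the difference of the 2 mithramycin effects was called at the brightest set for AZIN1 only, while 8.01% of all genes (5.18% higher and 2.83% lower) and 11.5% of those whose mean reached 6 were called in that contrast.

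The genes whose levels followed SAT1 most closely over the 12 arrays were TBCC, a tubulin folding cofactor, FAM219B, PLPBP, a pyridoxal phosphate binding protein, and MTRF1L, a mitochondrial translation release factor. Pearson correlations with SAT1 were 0.992, 0.992, 0.988 and 0.986 among 8376 other genes whose mean reached 6. The correlation is a description over 12 points that share arrays and fall into treated and control clusters. Within the groups, after the group means were taken away, it was 0.40 for TBCC, 0.30 for FAM219B, -0.58 for PLPBP and -0.28 for MTRF1L. Their differences with mithramycin were smaller than that of SAT1, at 0.76 and 0.75 for TBCC, 0.93 and 0.96 for FAM219B, 0.92 and 0.86 for PLPBP and 0.94 and 0.86 for MTRF1L in TC32 and TC71. Their dimmer sets gave smaller values in part, with the FAM219B sets between 0.04 and 0.93 and the MTRF1L sets between 0.17 and 0.94 in TC32.

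**Figure D5:**
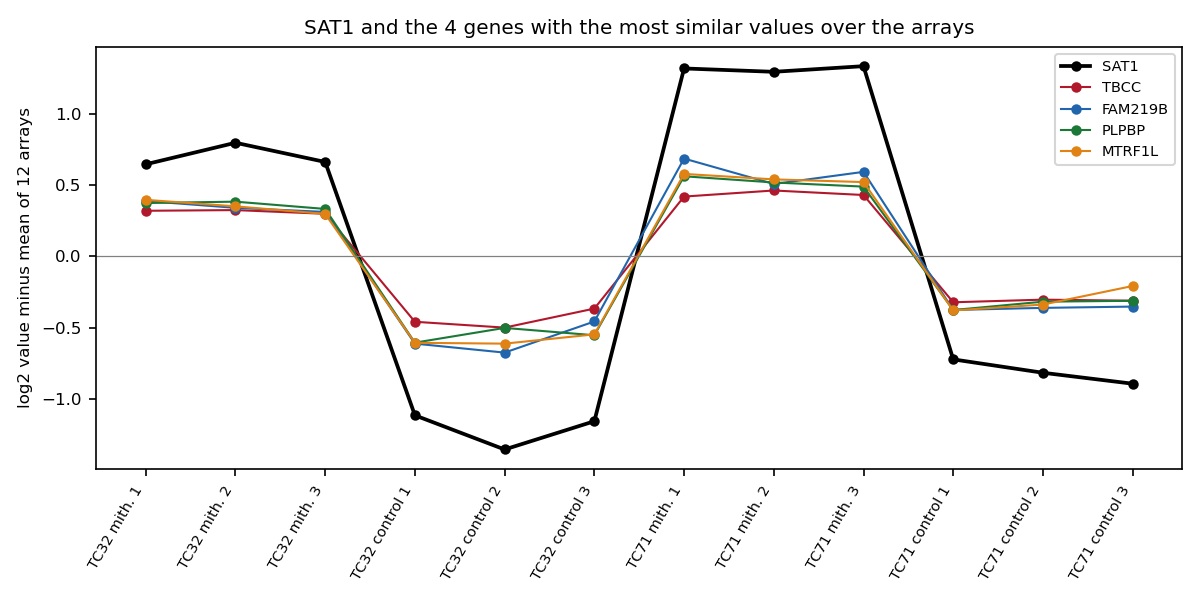
Log2 values of SAT1 and of the 4 genes most like it, each minus its own mean over the 12 arrays (vertical axis), on every array (horizontal axis). All 5 genes are above their mean on the 6 treated arrays and below it on the 6 control arrays, and SAT1 has the widest swing.

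Around the 10 genes, 37 further genes of polyamine metabolism, transport and regulation, among them transcription factor genes, were analysed at their brightest sets. In TC32 7 rose and 10 fell, and in TC71 6 rose and 7 fell, with median changes of 0.03 and 0.01. These counts and those of the single lists below stand beside 41.6% of all genes called in TC32 (23.1% higher and 18.5% lower) and 32.3% in TC71 (17% higher and 15.3% lower), and beside 60% and 50.2% of the genes whose mean reached 6. The lists are small, and nothing is read from their counts. Of 5 genes that supply arginine and ornithine or stand beside ODC1, 3 rose and 0 fell in each line, where 23.1% of all genes rose in TC32 and 17% in TC71. OAT, ornithine aminotransferase, which competes with ODC1 for ornithine, rose by 0.53 ± 0.07 in TC32 (adjusted p = 6.23e-05) and by 0.48 ± 0.07 in TC71 (adjusted p = 0.000198). It stood at 9.11, 9.35 and 9.28 in treated TC32 cells, against 8.69, 8.74 and 8.71 in TC32 controls, without overlap. AZIN2, the second antizyme inhibitor, rose by 0.47 ± 0.14 (adjusted p = 0.0197) and 0.41 ± 0.14 (adjusted p = 0.0472) in TC32 and TC71, whereas the brightest set of AZIN1 fell. The mitochondrial arginase ARG2 rose by 0.31 and 0.37 (adjusted p = 0.032 and 0.0158). The second set of AZIN2 was not called in TC71, and that of ARG2 was not called in TC32.

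Of 9 genes of the methyl donor and methionine salvage routes, which rebuild methionine from the by-product of SRM and SMS, 3 rose and 1 fell in TC32 (41.6% of all genes were called), and 3 rose and 0 fell in TC71 (32.3% of all genes). The rises were small in TC32 and TC71, at 0.31 and 0.27 for the dioxygenase ADI1, 0.20 and 0.25 for the aminotransferase GOT1, and 0.19 and 0.21 for the isomerase MRI1. Their sizes depend on the scale, since the housekeeping median was 0.10 higher with mithramycin in TC32 and 0.20 higher in TC71. Values of these further genes are given on the deposited scale only. The gene that fell was MAT2A, which makes S-adenosylmethionine. It was named after its values were seen, as were PAOX, SLC3A2, SLC12A8, EIF5A2, NFE2L2, KEAP1 and PMF1 of the other lists, and fell by 0.73 ± 0.06 in TC32 (adjusted p = 1.08e-06), beside -0.13 ± 0.06 in TC71 (adjusted p = 0.151), and the difference of these effects was 0.60 ± 0.09 (adjusted p = 0.00102). MAT2A stood at 9.69, 9.61 and 9.58 in treated TC32 cells, against 10.35, 10.32 and 10.41 in TC32 controls. Its second set was not called in either line (-0.24 in TC32 and 0.28 in TC71).

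Of 11 transport genes, 0 rose and 3 fell in each line, where 18.5% of all genes fell in TC32 and 15.3% in TC71. SLC7A1, a carrier of arginine and other cationic amino acids, fell by 1.16 ± 0.07 in TC32 (adjusted p = 4.41e-08) and by 0.87 ± 0.07 in TC71 (adjusted p = 8.29e-07). It stood at 8.85, 8.79 and 8.77 in treated TC32 cells and at 9.82, 9.73 and 9.76 in treated TC71 cells. The controls stood at 10.05, 9.83 and 10.01 in TC32 and at 10.67, 10.61 and 10.63 in TC71. ATP13A3, a polyamine-transporting ATPase, fell by 0.26 ± 0.09 (adjusted p = 0.0344) and 0.40 ± 0.09 (adjusted p = 0.0037), and its second set was not called. Of the 4 other SLC7A1 sets, 2 also fell in each line and 2 dim ones were not called. The remaining falls were those of SLC3A2 in TC32 (-0.31; adjusted p = 0.00367) and SLC12A8 in TC71 (-0.76; adjusted p = 0.000299). Of 4 hypusine genes, which use spermidine to modify the translation factor eIF5A, 0 rose in each line and 1 fell in TC32, namely EIF5A2 (-0.65 ± 0.14; adjusted p = 0.00312), whose other sets lay in the opposite direction at 0.28 and 0.47, and the set at 0.47 was called. In TC71 the set at 0.28 in TC32 rose by 0.53 (adjusted p = 0.00963). Calls in TC32 took in 41.6% of all genes. Of 2 further genes, PAOX, an oxidase of acetylated polyamines, fell in TC71 (-0.35; adjusted p = 0.0179).

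Of 6 transcription factor genes and regulators known to act on polyamine genes, 1 rose and 5 fell in TC32, and 0 rose and 3 fell in TC71. All 6 had means of at least 6, where 60% of genes were called in TC32 and 50.2% in TC71. MYC, a known activator of ODC1, fell by 0.84 ± 0.06 in TC32 (adjusted p = 3.53e-07) and by 0.62 ± 0.06 in TC71 (adjusted p = 8.17e-06). It stood at 9.20, 9.22 and 9.19 in treated TC32 cells, against 10.06, 10.05 and 10.04 in TC32 controls. ODC1 differed by 0.05 on the same arrays and by 0.20 in TC71. Whether ODC1 follows MYC in these cells was not tested. The partner gene MAX fell by 0.35 and 0.28, and MNT, a repressor that competes for MAX, by 0.39 and 0.24 in TC32 and TC71, but no other set of MAX was called and the second MNT set rose in TC71 (0.35). NFE2L2 and its partner KEAP1 also fell in TC32 (-0.64 and -0.22), and the TC71 effect minus the TC32 effect was 0.49 (adjusted p = 0.00674) and 0.38 (adjusted p = 0.023). PMF1 was the gene that rose in TC32 (0.27; adjusted p = 0.0177).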

How the data were processed

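RNA of 12 cultures was measured on 12 arrays. The authors deposited log2 values of each probe set, made with RMA per the submitters' processing notes. Version and settings were not given in the sources used here. As RMA equalizes probe distributions between arrays, changes are relative to other genes. Of 54675 sets, 62 controls were left out. Sets with 1 symbol in the platform annotation (41091) were named, with symbols updated through Entrez identifiers in RefSeq's GRCh38.p14 table (41037 matched). A gene's value is that of its brightest set over all arrays.

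One model with a mean per group was fitted to 54613 sets with limma 3.58.1 (R 4.3.3, empirical Bayes) and tested on simulated data. P-values come from limma (two-sided), were adjusted after Benjamini-Hochberg over all sets and were called under 0.05. Errors of changes are standard errors, and intervals are 95% intervals of the model. Groups come from the labels, which describe biological replicates. The main fit did not pair arrays by replicate number. Correlations of deviations between treated and control arrays of the same number were 0.07, 0.21 and 0.03 in TC32. In TC71 they were -0.09, -0.02 and -0.03. Between different numbers in the same line they ran from -0.17 to 0.11. The members and lists were chosen with earlier results of these data known. All members were named; of each further list, those called in each line; and the 4 genes most like SAT1. Alternatives were 12 fits without 1 array and 12 other settings. Signal over background and batches were not analysed here.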

Additional observations from a re-analysis of the deposited data

Results flagged for a closer look

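The lines differed in their response at 2 of the 16 probe sets of members other than SAT1. The test was that of the difference itself (limma, TC71 effect minus TC32 effect). At the brightest sets only AZIN1 of the 9 genes was called. There 8.01% of all genes and 11.5% of those whose mean reached 6 were called. The share over all probe sets was not counted. Nothing is read from these counts. For the brightest AZIN1 set the difference of the effects was 0.41, with falls of 0.47 in TC71 and 0.88 in TC32. For the second AMD1 set it was 0.47, with changes of -0.13 in TC71 and -0.59 in TC32. The AMD1 call ended in 7 of 12 fits without 1 array (values 0.41 to 0.47, adjusted p from 0.0502 to 0.0637 in those 7), namely without TC32 mithramycin replicates 1 and 3, TC32 control replicates 2 and 3, TC71 mithramycin replicates 1 and 3 and TC71 control replicate 1. It also ended with centring on housekeeping genes (0.36; adjusted p = 0.0657) and with the beta-actin covariate (0.40; adjusted p = 0.124). The beta-actin 3' minus 5' difference was 0.88 ± 0.10 in treated TC71 cells and 1.45 ± 0.48 in TC71 controls (SD, n = 3 each), and its part in the differences was not tested beyond that covariate.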

How the results depend on the processing

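Over 24 alternatives, the falls of AMD1 in each line and of AZIN1 in TC32 kept their direction and call, and the fall of AZIN1 in TC71 lost its call only with the mean of its sets. SAT1 stayed between 1.70 and 1.99 in TC32 and between 1.93 and 2.23 in TC71 over 23 alternatives. Small changes did not hold as well. Without any 1 array, the members that rose numbered 1 to 2 in TC32 and 2 to 4 in TC71, those that fell 2 to 3 in TC32 and 2 in TC71, those higher in TC71 controls 3 to 4 and those whose effect was called higher in TC71 came to 1. The count of members that rose was 0 in each line with either centring, 1 in TC32 with array weights or the groups compared alone, and 1 in TC71 with the beta-actin covariate. Those that fell in TC71 came to 1 with the mean of sets. Members higher in TC71 controls came to 2 without the _x_at and _s_at sets (fewer genes tested) and to 2 with the covariate, and the count of effects called higher in TC71 was 0 with housekeeping centring, 0 with the covariate and 3 with an intensity trend. The fit with the replicate block gave 3 higher and 5 lower members between control lines against 4 and 6, with ODC1 at -0.17 and OAZ2 at 0.17, and changed no other call of a member. Directions of uncalled or small changes turned as follows. With housekeeping centring ODC1 was at -0.043, OAZ1 at -0.025 in TC32, and SAT2 at -0.14, ODC1 at -0.0022, OAZ1 at -0.20 and SMOX at -0.19 in TC71. With hybridization controls ODC1 was at -0.16, OAZ1 at -0.14, OAZ2 at -0.013 and SMS at -0.017 in TC32. With quantile normalization again SAT2 was at 0.025 and ODC1 at -0.0031 in TC32 and OAZ1 at -0.0046 in TC71. In TC71 SMOX was at -0.025 without _x_at and _s_at sets and OAZ1 at -0.0083 with the covariate. Without 1 array SAT2 ranged from -0.071 to 0.00074 in TC32, and in TC71 OAZ1 ranged from -0.0063 to 0.018 and SMOX from -0.082 to 0.074. Except where an alternative itself tests fewer genes or samples, the cause was not tested. SAT1, OAZ1 and SMS have no set outside the _s_at sets and gave no value there.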

Other observations

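MTAP, the phosphorylase that breaks down the by-product of spermidine and spermine synthesis, was chosen here after its values were seen. At its brightest set it stood at 5.66, 5.56 and 5.36 in TC71 controls and at 3.58, 3.35 and 3.54 in TC32 controls, a difference of 2.04 ± 0.13 (limma adjusted p = 2.02e-08). In TC32 these levels lie below the array medians, so the size is rough. Of its 6 sets, 4 were higher in TC71 controls, by 1.23 to 2.47, and the other 2 were at -0.13 each and not called.

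SLC12A8, listed here among transport genes, was 2.64 lower in TC71 controls than in TC32 controls (limma adjusted p = 6.48e-10), and it too was named after its values were seen.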
